A study of Mus musculus with 24 samples.

Results

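The nuclear genes for subunits of the mitochondrial respiratory chain and of ATP synthase were followed in mouse liver over 2 diets, vinyl chloride exposure and 2 times. The members were all gene symbols of the count table that begin with Nduf followed by a, b, c, s or v and a digit, the symbols Sdha to Sdhd, and those that begin with Uqcr, with Cox and a digit of 4 to 8, or with Atp5. Symbols of pseudogenes and of the Ndufaf assembly factors were left out. This gave 84 of the 24421 symbols, which were grouped by name into 37 of complex I, 4 of complex II, 8 of complex III, 18 of complex IV and 17 of complex V.

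The respiratory chain sits in the inner mitochondrial membrane. Complex I takes electrons from NADH and complex II from succinate, complex III passes them to cytochrome c, and complex IV hands them to oxygen. Complexes I, III and IV pump protons, and complex V, the ATP synthase, lets the protons flow back and makes ATP. Hepatocytes are rich in mitochondria and burn fatty acids through this chain, and most subunits are encoded in the nucleus and imported.

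All animals were male C57Bl/6J mice, fasted for 4 h before the liver was taken, and each of the 8 groups held 3 RNA-seq libraries. The m12_WD+VC and m12_CD+VC mice breathed vinyl chloride (VC), an industrial gas that the liver metabolises, at 0.85 ± 0.1 ppm during 12 weeks (5 daily sessions of 6 h in each week). They ate a Western diet with 42% fat (WD) or a control diet with 13% fat (CD) for 12 months in all and were kept for 9 more months after the exposure. The m12_WD and m12_CD mice had the same diets and times in air. The w12_WD+VC, w12_CD+VC, w12_WD and w12_CD mice had the matching treatment but were killed at the end of the 12 weeks. The labels do not say whether libraries came from single or pooled animals. All p-values therefore reflect only the variation among these libraries, which may be technical in part.

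The third w12_WD library held 607 counts, of which 1 fell on a member, and group means leave it out. The other 23 libraries held 126160 to 962493 counts and 188 to 2894 member counts each, so that 1 count stood for 1.04 to 7.93 CPM, counts scaled to a common library total. Per-gene tests used edgeR's quasi-likelihood model with all 24 libraries, TMM scaling and Benjamini-Hochberg adjustment over the 4198 genes that passed the expression filter, and a member is called where the adjusted p is at most 0.05. Of the 12 hepatocyte markers, 11 had counts and Ass1 was at 0. Of 7 muscle markers Acta1, Myh6, Myh7 and Tnnt3, of 4 fat markers Adipoq and Ucp1, and of 3 red cell markers Hbb-bs and Hba-a1 were at 0 in all libraries. The summed level of the whole list reached at most 20.8 CPM for muscle, 17.7 CPM for fat and 53.9 CPM for red cells. The red cell sum came from Alas2 alone. Since Ass1 was also at 0, a count of 0 in this table need not mean that a cell type was absent.

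The members held 20996 counts, 0.244% of all counts. Counts were found for 78 members, and Ndufs5, an accessory subunit of complex I, and the isoform genes Cox4i2, Cox6b2, Cox7b2, Cox8b and Cox8c had 0 in all libraries. The expression filter kept 48 members, 19 of complex I, 3 of complex II, 7 of complex III, 6 of complex IV and 13 of complex V. The other 36 were not tested, and the one with most counts among them, Ndufb9, had 151. Complex V held 44.3% of the member counts, complex I 31.5%, complex III 9.84%, complex IV 9.03% and complex II 5.25%. Divided by exon length, the highest mean levels over the 23 libraries were 81.0 CPM per kb for Atp5f1, a peripheral stalk subunit of ATP synthase, 75.0 for Ndufa2 and 56.4 for Ndufb11, both accessory subunits of complex I, 69.2 for Atp5k, a membrane subunit of ATP synthase, and 61.6 for Uqcrh, the hinge protein of complex III. None of the 15 listed genes of the mitochondrial genome was analysed here, so the values describe the nuclear subunits only.

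Exons of 25 members (29.8%, against 23.7% of all entries) overlap exons of a gene on the other strand in the GENCODE M21 annotation of GRCm38, and these members held 40.4% of the member counts. Another 58 have no such overlap, and Atp5o was not placed. No label or file header says whether counting used strand, so reads of a gene and of its antisense partner cannot be told apart for the 25. Over the whole table, entries with an overlap held 78.48% of all counts. Some partners held more counts than the member, as Ino80dos with 14277 against 165 for Ndufs1. Others held fewer, as Haus1 with 18 against 780 for Atp5a1. Which strand the counts of the other 58 come from is not known either and was not tested. The levels below are therefore those of entries in the count table, and need not be those of the gene's own RNA. Entries without an overlap held 20.6 ± 2.42% of all counts in m12_WD+VC, 26.5 ± 4.64% in m12_CD+VC, 25.8 ± 3.91% in m12_WD and 15.5 ± 3.58% in m12_CD libraries (SD, n = 3 each). At 12 weeks this share averaged 15.1% to 17.1%. The share moved with the member levels below, and its part in them was not tested.

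To show the stretches next to called genes, the 250 bases before the start of 4 called members are given from RefSeq on GRCm38.p6, 5′ to 3′ on the gene's strand. These 4 were called in the most comparisons, leaving out Uqcrb, for which no window was found. Whether they are regulated together was not tested. Capitals mark the letters CCGGAAG or their reverse complement CTTCCGG, the core that ETS factors such as GABPA bind. The windows are chr10:128083057-128083306 on the plus strand for Atp5b, the catalytic beta subunit of ATP synthase, chr11:115419920-115420169 on the minus strand for Atp5h, subunit d of its peripheral stalk, chrX:106015450-106015699 on the plus strand for Cox7b, a small subunit of complex IV, and chr10:80406822-80407071 on the minus strand for Uqcr11, a small subunit of complex III.
Atp5b: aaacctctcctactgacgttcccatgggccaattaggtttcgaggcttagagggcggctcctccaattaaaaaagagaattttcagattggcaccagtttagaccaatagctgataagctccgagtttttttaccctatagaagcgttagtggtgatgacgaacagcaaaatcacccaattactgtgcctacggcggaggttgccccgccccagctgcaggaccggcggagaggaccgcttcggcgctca
Atp5h: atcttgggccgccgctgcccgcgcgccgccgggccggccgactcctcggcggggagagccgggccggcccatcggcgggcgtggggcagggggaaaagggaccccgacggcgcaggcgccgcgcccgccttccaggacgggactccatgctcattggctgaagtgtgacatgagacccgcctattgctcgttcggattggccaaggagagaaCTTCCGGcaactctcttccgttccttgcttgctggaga
Cox7b: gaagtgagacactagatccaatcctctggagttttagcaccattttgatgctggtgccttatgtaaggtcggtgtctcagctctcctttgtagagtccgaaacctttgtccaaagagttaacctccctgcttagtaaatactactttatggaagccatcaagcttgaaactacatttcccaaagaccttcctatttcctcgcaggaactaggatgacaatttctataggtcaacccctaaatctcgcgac
Uqcr11: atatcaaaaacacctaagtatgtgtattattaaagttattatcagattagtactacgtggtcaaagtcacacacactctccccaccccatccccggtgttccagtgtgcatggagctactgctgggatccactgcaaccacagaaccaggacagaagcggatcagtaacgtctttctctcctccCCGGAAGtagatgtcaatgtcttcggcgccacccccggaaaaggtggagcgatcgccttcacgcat

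Windows of 250 bases before and 50 bases after the start, the span searched for motifs, were found in RefSeq for 69 of the 84 members and for 27025 genes in all, and both strands were searched. The letters CCGGAAG were present for 16 members (23.2%, against 9.93% of all genes), including Atp5h, Uqcr11, Atp5e and Uqcrh. The YY1 letters AAGATGGC were present for 11 (15.9%, against 3.19%), among them Atp5f1, Atp5j and Atp5j2. The letters TGCGCA, a core of NRF1 sites, were present for 18 (26.1%, against 8.79%), among them Atp5f1 and Sdha. The ERR alpha letters TCAAGGTCA were present for Atp5g3 and Sdhd alone (2.9%, against 0.47%). These are matches of letters and not binding sites.

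The summed level of all members was highest in the m12_CD+VC and m12_WD livers. It averaged 2509.6 ± 355.0 CPM in m12_WD+VC, 3611.6 ± 650.1 CPM in m12_CD+VC, 3500.8 ± 746.3 CPM in m12_WD and 1706.6 ± 545.6 CPM in m12_CD libraries (SD, n = 3 each). At 12 weeks it averaged 2017.2 ± 178.1 CPM in w12_WD+VC, 1948.8 ± 562.4 CPM in w12_CD+VC, 1718.9 ± 469.9 CPM in w12_WD (n = 2) and 1854.8 ± 667.9 CPM in w12_CD libraries. The m12_WD libraries held 3136.4, 4359.3 and 3006.8 CPM and the m12_CD+VC libraries 3472.6, 4319.9 and 3042.2 CPM, all above the m12_CD libraries at 1093.0, 1890.0 and 2137.0 CPM. The m12_WD+VC libraries, at 2453.0, 2889.5 and 2186.3 CPM, lay above every m12_CD library and below every m12_WD and m12_CD+VC library in CPM. After TMM scaling the m12_WD+VC libraries, at 2330.3 to 2772.5, overlapped the m12_CD libraries, at 1589.9 to 2638.2. The 12-week groups overlapped each other. Liver was sampled whole, so fewer cells of a type and less RNA per cell cannot be told apart.

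**Figure D1:**
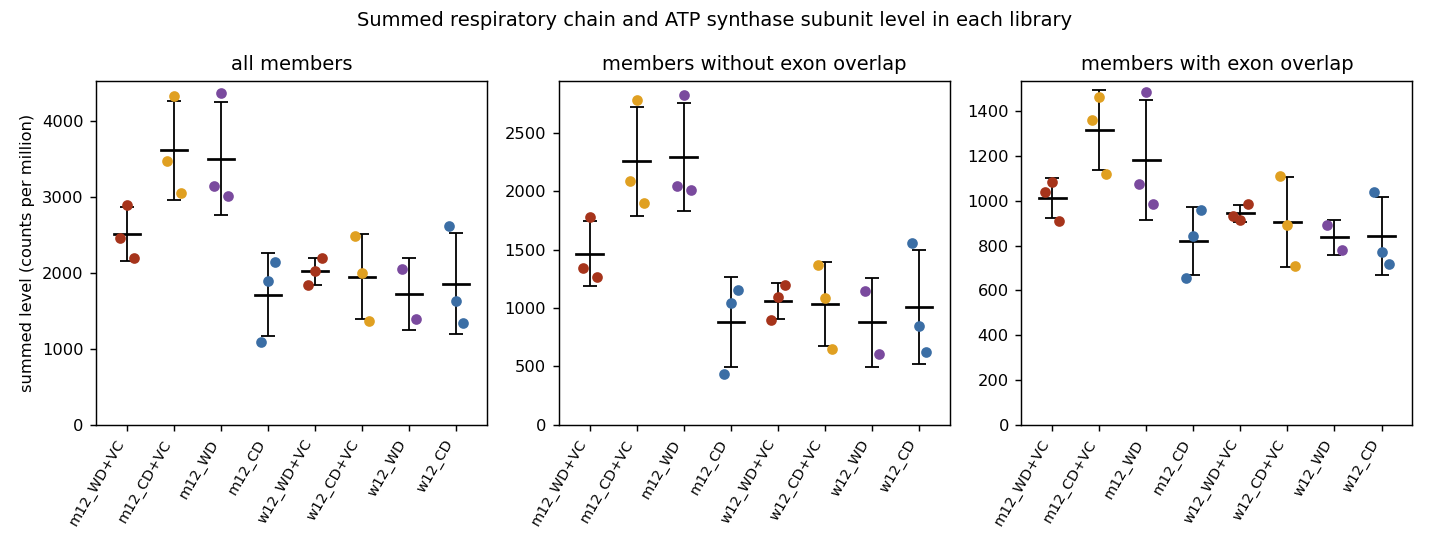
Summed level of all 84 members, of the 58 without and of the 25 with an exon overlap on the other strand, in CPM, in each library of the 8 groups (points). Bars give the mean ± SD, and the third w12_WD library is left out. The m12_CD+VC and m12_WD libraries stand above all m12_CD libraries in each panel.

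The m12_CD group was also the lowest at 12 months for the members without an exon overlap, which averaged 1463.3 ± 278.5 CPM in m12_WD+VC, 2255.8 ± 464.7 CPM in m12_CD+VC, 2291.1 ± 462.1 CPM in m12_WD and 876.7 ± 385.4 CPM in m12_CD libraries. A second CPM, chosen after seeing the data, takes only the counts of entries without an overlap as the total and is called no-overlap CPM here. On it the same members averaged 7076.9 ± 669.4 in m12_WD+VC, 8473.5 ± 347.8 in m12_CD+VC, 8846.7 ± 643.5 in m12_WD and 5450.9 ± 1520.6 in m12_CD libraries, so the m12_WD and m12_CD+VC groups stayed apart from m12_CD on that scale too. For all members together no-overlap CPM spanned 12501.0 to 14514.4 in m12_WD and 9548.1 to 12629.8 in m12_CD libraries, which overlapped. The members with an overlap averaged 1012.0 ± 90.6 CPM in m12_WD+VC, 1315.6 ± 178.1 CPM in m12_CD+VC, 1181.7 ± 267.0 CPM in m12_WD and 820.1 ± 153.1 CPM in m12_CD libraries. In no-overlap CPM the order turned for these, with 4548.4 ± 352.7 in m12_WD and 5350.0 ± 612.9 in m12_CD libraries.

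Complex I, the NADH-oxidising entry point, summed to 791.8, 933.0 and 746.7 CPM in m12_WD+VC, to 1050.0, 1410.9 and 942.1 CPM in m12_CD+VC, to 1041.8, 1598.8 and 1079.5 CPM in m12_WD and to 280.0, 622.9 and 714.1 CPM in m12_CD libraries. In CPM no library of the first 3 groups fell within the m12_CD range. After TMM scaling the m12_WD+VC libraries, from 795.9, overlapped the m12_CD libraries, up to 881.5. In no-overlap CPM complex I averaged 4002.7 ± 175.8 in m12_WD+VC, 4255.2 ± 194.1 in m12_CD+VC, 4771.7 ± 588.5 in m12_WD and 3364.4 ± 888.6 in m12_CD libraries, and each of the first 3 groups overlapped m12_CD. Complex II, which also works in the citric acid cycle, averaged 106.6 ± 26.3 CPM in m12_WD+VC, 218.2 ± 63.8 CPM in m12_CD+VC, 188.2 ± 94.5 CPM in m12_WD and 56.3 ± 12.9 CPM in m12_CD. Complex III averaged 248.3 ± 68.2, 386.4 ± 71.2, 381.7 ± 84.3 and 140.9 ± 78.8 CPM in these 4 groups, in the same order, and complex IV averaged 227.3 ± 52.3, 368.1 ± 134.2, 395.1 ± 155.2 and 126.0 ± 59.4 CPM. For complexes II, III and IV the m12_WD and m12_CD+VC libraries all lay above the m12_CD libraries, in CPM, TMM-scaled CPM and no-overlap CPM.

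Complex V, the ATP synthase, summed to 1067.5, 1245.0 and 998.2 CPM in m12_WD+VC, to 1545.3, 1648.7 and 1319.4 CPM in m12_CD+VC, to 1200.9, 1434.3 and 1252.0 CPM in m12_WD and to 653.4, 850.4 and 1029.7 CPM in m12_CD libraries. In CPM the m12_WD and m12_CD+VC groups did not overlap with m12_CD, but after TMM scaling the m12_WD libraries spanned 1226.9 to 1339.4 and the m12_CD libraries 950.4 to 1271.2, and in no-overlap CPM the m12_WD mean of 5058.2 ± 480.2 was below the m12_CD mean of 5490.5 ± 728.4. The 2 peripheral stalk genes Atp5f1 and Atp5j, both with an exon overlap, held 13.5% and 6.36% of all member counts. Without them, a choice made after their levels were seen, complex V averaged 3572.9 ± 408.6 no-overlap CPM in m12_WD and 2281.5 ± 570.8 in m12_CD libraries.

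**Figure D2:**
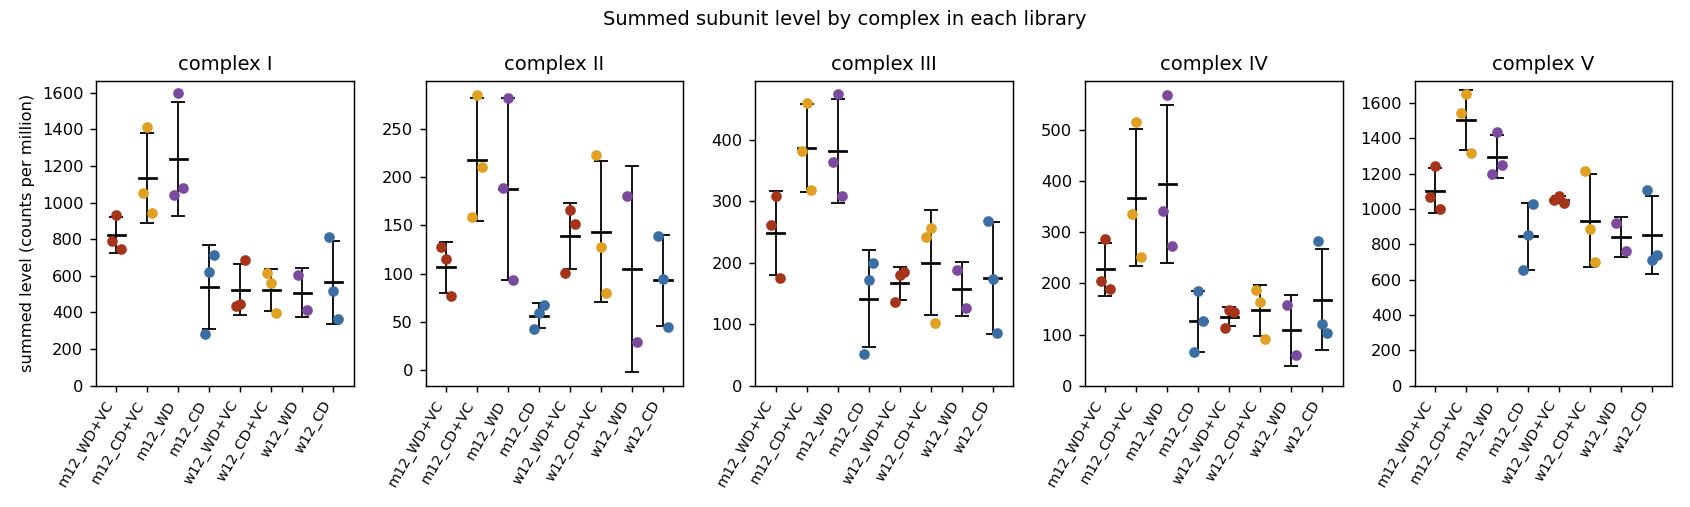
Summed level of the members of complexes I to V in CPM in each library of the 8 groups (points), with the mean ± SD. In each complex the m12_CD+VC and m12_WD libraries lie above the m12_CD libraries, whose complex I sums span 280.0 to 714.1.

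The effect of Western diet in air after 12 months was read from m12_WD against m12_CD livers, in which 7 tested members rose and none fell. They were Atp5b, Atp5h and Atp5j2 of ATP synthase, Uqcrb and Uqcr11 of complex III, and Cox4i1 and Cox7b of complex IV. No complex I or complex II member passed the test, although 16 of 19 and 3 of 3 had log2 fold changes above 0. The 7 called are 14.6% of the 48 tested members, close to the 13.3% of all tested genes that rose, while 11.1% of all tested genes fell and 24.3% were called in either direction. Of the 48 members, 42 (87.5%) had log2 fold changes above 0 with a median of 0.98, against a median of 0.11 over all tested genes, 0.48 over those without and -0.16 over those with an exon overlap. The 31 tested members without an overlap had a median of 0.93 and the 16 with one a median of 0.98.

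Atp5b, the catalytic beta subunit, had 201.7, 294.7 and 218.2 CPM in m12_WD, against 33.1, 87.2 and 54.3 CPM in m12_CD libraries. Every m12_WD library was above every m12_CD library, and the log2 fold change was 1.65 ± 0.35 (SE; edgeR adjusted p = 0.00065). Atp5h, subunit d of the peripheral stalk, had 74.0, 66.3 and 65.5 CPM in m12_WD, against 3.01, 10.6 and 12.9 CPM in m12_CD libraries. These groups lay far apart, with a log2 fold change of 2.53 ± 0.51 (edgeR adjusted p = 0.000437). Atp5j2, subunit f in the membrane part, had 50, 105.6 and 82.1 CPM in m12_WD, against 21.1, 23.4 and 23.3 CPM in m12_CD libraries, with a log2 fold change of 1.42 ± 0.45 (edgeR adjusted p = 0.0205).

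Uqcrb, the ubiquinone-binding subunit of complex III, had 29.6, 76.1 and 10.4 CPM in m12_WD, against 3.01, 4.25 and 0.0 CPM in m12_CD libraries. The m12_CD level rested on 3 counts against 57 in m12_WD, a ratio of 11.8 with an exact 95% interval of 3.85 to 59.0 that covers counting error only, and edgeR gave an adjusted p of 0.00446. The expression filter asks for enough counts in a few libraries of any group. At 12 months the highest Uqcrb levels were all in m12_WD and m12_CD+VC libraries. How Uqcrb passed the filter may therefore affect its tests here and below. Uqcr11 had 29.6, 39.3 and 47.8 CPM in m12_WD, against 0.0, 10.6 and 7.76 CPM in m12_CD libraries (log2 fold change 2.20 ± 0.69, edgeR adjusted p = 0.0184). Neither gene's groups overlapped. Cox7b had 79.6, 73.7 and 43.6 CPM in m12_WD, against 3.01, 27.6 and 23.3 CPM in m12_CD libraries (1.45 ± 0.48, edgeR adjusted p = 0.0248). Cox4i1, a regulatory subunit of the oxidase, had 59.2, 95.8 and 95.6 CPM in m12_WD, against 12.0, 31.9 and 33.6 CPM in m12_CD libraries (1.31 ± 0.50, edgeR adjusted p = 0.0483). Both complex IV genes were higher in every m12_WD library. Of the 7 called members, Uqcrb and Cox4i1 have an exon overlap and the other 5 have none. Exons of Uqcrb overlap those of Gm10767 by 50 bases, with 153 and 56 counts in all libraries together. Those of Cox4i1 overlap Emc8 by 154 bases, with 384 and 24 counts.

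Groups did not overlap for 24 members that were higher and 1 that was lower in m12_WD (50% and 2.08% of the 48), against 28.9% and 9.43% of all tested genes. The 2 members with most counts had no call. Atp5f1 had 322.0, 221.0 and 243.1 CPM in m12_WD, against 319.2, 333.8 and 307.9 CPM in m12_CD libraries, with a log2 fold change of -0.66 (edgeR adjusted p = 0.065). Atp5j, coupling factor 6, had 90.7, 125.3 and 126.8 CPM in m12_WD, against 135.5, 110.6 and 235.4 CPM in m12_CD libraries, with a log2 fold change of -0.86 (edgeR adjusted p = 0.0514). The groups overlapped in both genes. Exons of Atp5j overlap those of Gabpa on the other strand by 397 bases, and Gabpa held 340.5, 240.7 and 252.5 CPM in m12_WD, against 316.1, 363.5 and 413.9 CPM in m12_CD libraries. Exons of Atp5f1 overlap those of Wdr77 by 337 bases, and Wdr77 had 16 counts in all libraries together.

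Among complex I genes with most counts, Ndufv3, an accessory subunit of the NADH-oxidising arm, had 105.5, 125.3 and 69.6 CPM in m12_WD, against 24.1, 53.1 and 80.2 CPM in m12_CD libraries, which overlapped. Ndufb11 had a log2 fold change of 0.16 and Ndufa2 of -0.26 (edgeR adjusted p = 0.841 and 0.669). In complex II, Sdha, the flavoprotein that oxidises succinate, had 85.1, 147.4 and 5.19 CPM in m12_WD, against 3.01, 14.9 and 38.8 CPM in m12_CD libraries, and the third m12_WD library lay within the m12_CD range (log2 fold change 1.61, edgeR adjusted p = 0.114). Sdhc, a membrane anchor, had a log2 fold change of 1.32 (edgeR adjusted p = 0.163). In complex III, Uqcrh had 98.1, 140.0 and 127.8 CPM in m12_WD, against 12.0, 51.0 and 90.6 CPM in m12_CD libraries, without overlap but with an edgeR adjusted p of 0.127, and Uqcrc1, a core subunit, had a log2 fold change of 0.46 (edgeR adjusted p = 0.49).

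Atp5b and Atp5h kept their call in every alternative that was run and with any single library of the 2 groups left out, and Uqcrb lost it only without the second m12_WD library (edgeR adjusted p = 0.0593). Cox4i1 kept its call in 3 of 9 alternatives and in 0 of 6 fits that left out 1 library (edgeR adjusted p of 0.0594 to 0.213 in these). With 1 library left out Atp5j2 kept its call in 2 of 6 fits, Cox7b in 3 of 6 and Uqcr11 in 5 of 6. The count of called members moved to 3 without the first m12_CD library or without the second m12_WD library, to 15 without the third m12_WD library, to 15 with median-of-ratios (RLE) scaling, to 4 when only the compared groups were fitted, and to 3 among entries without an overlap tested alone.

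The effect of vinyl chloride on control diet after 12 months was read from m12_CD+VC against m12_CD livers, in which 4 members rose and none fell: the ATP synthase genes Atp5b and Atp5h, Uqcrb of complex III and Cox7b of complex IV. They are 8.33% of the tested members, against 3.95% of all tested genes that rose, 1.21% that fell and 5.17% in either direction. This comparison uses the same m12_CD libraries as the diet comparison in air, so the 2 are not independent. Of the 48 members, 42 had log2 fold changes above 0 with a median of 0.93, against a median of 0.07 over all tested genes, 0.58 over those without and -0.30 over those with an exon overlap. Medians by complex were 0.64 for complex I, 1.30 for II, 0.98 for III, 1.43 for IV and 0.82 for V.

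Atp5b had 246.2, 412.2 and 203.0 CPM in m12_CD+VC, against 33.1, 87.2 and 54.3 CPM in m12_CD libraries (log2 fold change 1.9 ± 0.35 SE, edgeR adjusted p = 0.00397). Atp5h had 67.9, 39.6 and 57.3 CPM in m12_CD+VC, against 3.01, 10.6 and 12.9 CPM in m12_CD libraries (2.29 ± 0.53, edgeR adjusted p = 0.0163). The groups of both genes were fully separate. Cox7b had 65.1, 111.0 and 54.7 CPM in m12_CD+VC, against 3.01, 27.6 and 23.3 CPM in m12_CD libraries (1.63 ± 0.50, edgeR adjusted p = 0.0489). Uqcrb had 39.6, 31.7 and 33.8 CPM in m12_CD+VC, against 3.01, 4.25 and 0.0 CPM in m12_CD libraries, or 31 against 3 counts and a ratio of 14.2 (exact 95% interval 4.44 to 72.7, counting error only; edgeR adjusted p = 0.0261). These groups did not overlap either.

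The groups were separate for 25 members that were higher and 0 that were lower in m12_CD+VC (52.1% of the 48), against 25.1% and 5.67% of all tested genes. Uqcr11 had a log2 fold change of 2.06 and missed the threshold (edgeR adjusted p = 0.0778), as did Cox4i1 at 0.57 (edgeR adjusted p = 0.501). Atp5f1 and Atp5j had log2 fold changes of -0.38 and -0.18 (edgeR adjusted p = 0.352 and 0.754). All 4 calls were lost without the first m12_CD library, with edgeR adjusted p values of 0.0796 for Atp5b, 0.107 for Atp5h, 0.249 for Cox7b and 0.107 for Uqcrb. The count was 1 without the first m12_CD+VC library, 2 without the third m12_CD or the second m12_CD+VC library, and 8 with RLE scaling.

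The diet effect after vinyl chloride exposure and the vinyl chloride effect on Western diet gave no call at 12 months. In m12_WD+VC against m12_CD+VC livers 0 members were called in either direction by edgeR, with 5 at an unadjusted p under 0.05, against 0.667% of all tested genes called higher, 0.786% called lower and 1.45% in either direction. DESeq2 also called 0 and limma-voom 1. The median log2 fold change of the members was -0.34 and 7 of 48 were above 0, against a median of -0.01 over all tested genes. The smallest p was that of Atp5a1, the alpha subunit of the ATP synthase head, which had 42.4, 84.2 and 38.5 CPM in m12_WD+VC, against 130.2, 206.1 and 171.8 CPM in m12_CD+VC libraries. The groups did not overlap, as for 11 members that were lower and 0 that were higher in m12_WD+VC, against 12.5% of all tested genes lower and 12.2% higher, but the log2 fold change of -1.5 ± 0.41 missed the threshold (edgeR adjusted p = 0.0543).

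In m12_WD+VC against m12_WD livers 0 members were called, with 5 at an unadjusted p under 0.05 and 0 by DESeq2 and limma-voom, against 0.572% of all tested genes called higher, 0.0238% called lower and 0.596% in either direction. The median of the members was -0.43 and 9 of 48 were above 0, against a median of -0.04 over all tested genes. Atp5a1 again had the smallest p, with 42.4, 84.2 and 38.5 CPM in m12_WD+VC, all below the 140.6, 181.7 and 98.7 CPM in m12_WD libraries (log2 fold change -1.21 ± 0.40, edgeR adjusted p = 0.208). The groups were separate with the m12_WD+VC libraries lower for 12 members and higher for 3, against 8.98% of all tested genes in each direction.

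**Figure D3:**
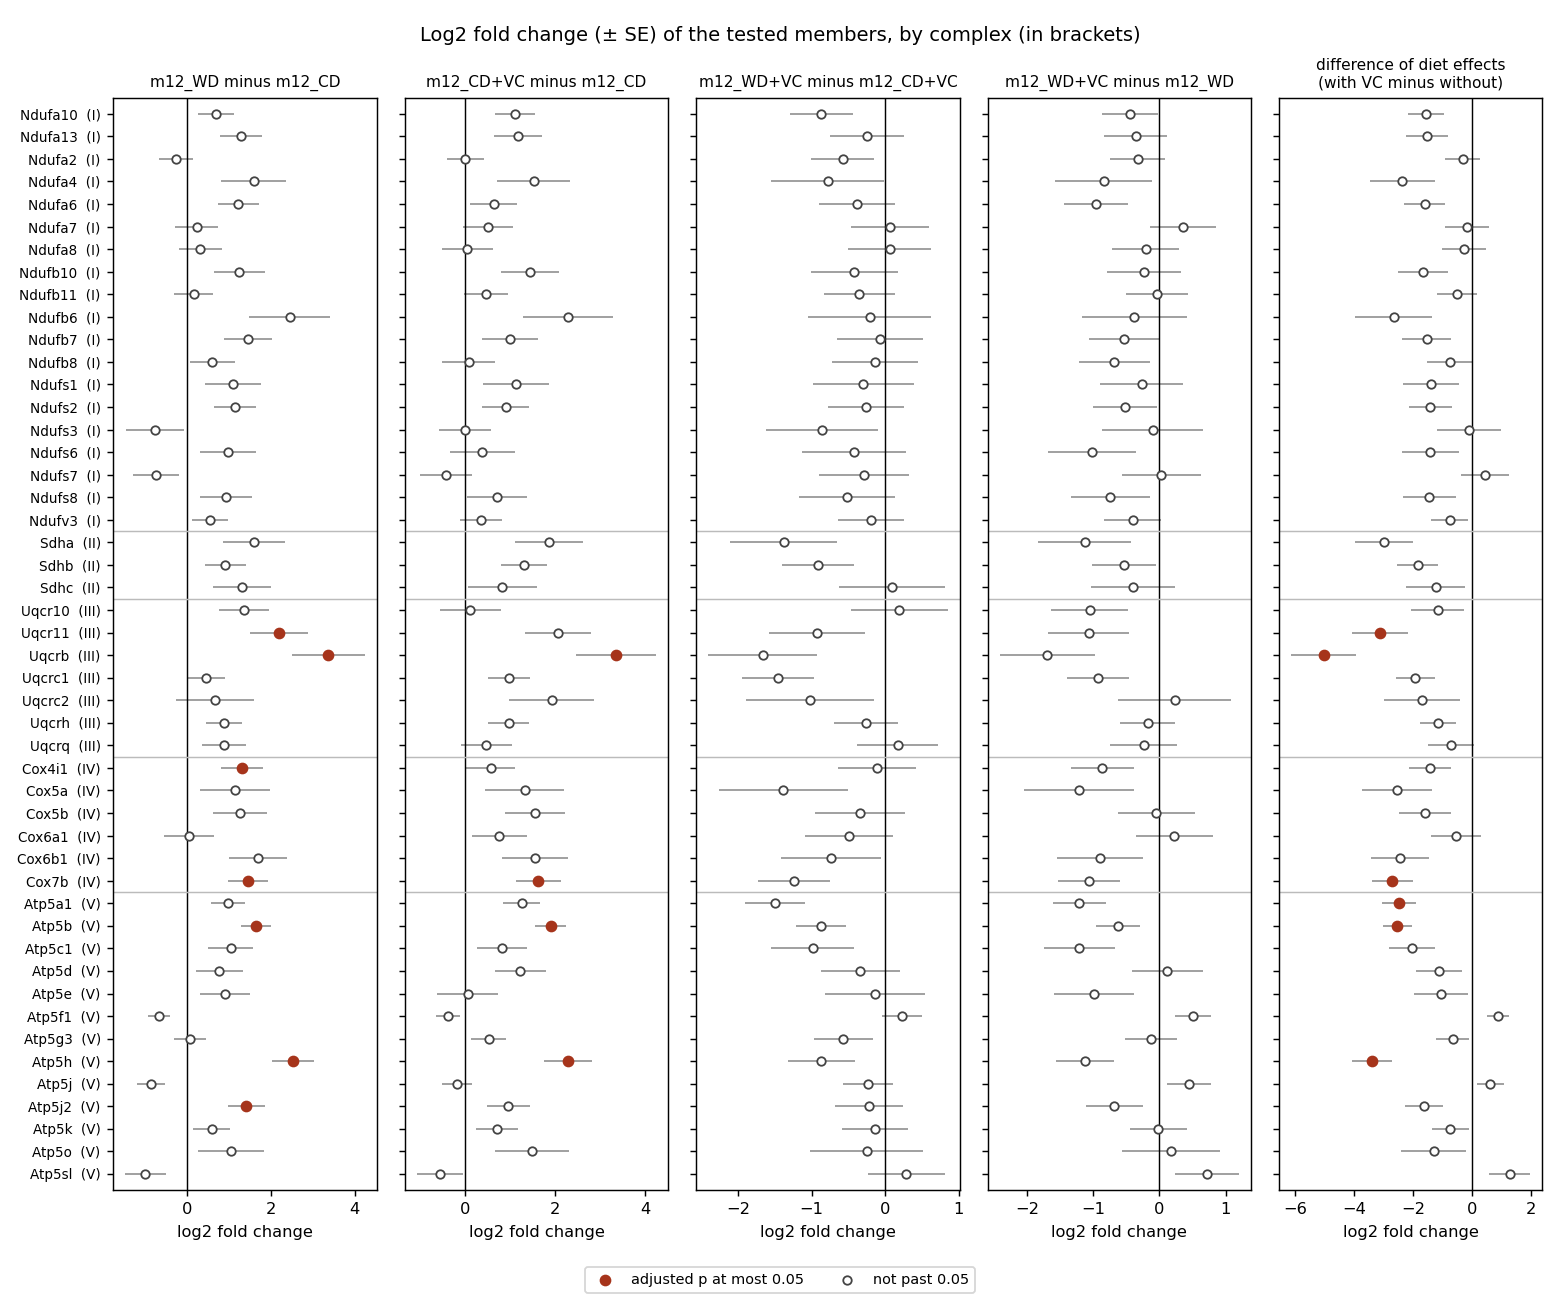
Log2 fold change with its standard error for the 48 tested members, ordered by complex, in 4 comparisons at 12 months and in the difference between the diet effects with and without vinyl chloride. Filled points have an edgeR adjusted p of at most 0.05. The first 2 panels, which share the m12_CD libraries, lie mostly above 0 with 42 of 48 members each, and in the last panel 44 of 48 lie below 0.

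At 12 months the diet effect differed between exposed and unexposed mice for 6 members, all with a lower diet effect in the exposed mice, and for none in the other direction. They were Atp5a1, Atp5b and Atp5h of ATP synthase, Uqcrb and Uqcr11 of complex III and Cox7b of complex IV. They are 12.5% of the tested members, against 6.22% of all tested genes called lower, 3.55% called higher and 9.77% in either direction. The log2 difference was -2.47 ± 0.58 for Atp5a1, -2.53 ± 0.48 for Atp5b, -3.40 ± 0.69 for Atp5h, -2.70 ± 0.69 for Cox7b, -3.13 ± 0.95 for Uqcr11 and -5.04 ± 1.10 for Uqcrb, with edgeR adjusted p values of 0.0085, 0.00275, 0.00434, 0.0136, 0.0341 and 0.00768 in that order.

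Atp5a1 shows the pattern in its libraries. It had 140.6, 181.7 and 98.7 CPM in m12_WD against 39.1, 44.6 and 80.2 CPM in m12_CD libraries, and 42.4, 84.2 and 38.5 CPM in m12_WD+VC against 130.2, 206.1 and 171.8 CPM in m12_CD+VC libraries. The Western diet libraries lay above the control diet libraries in air and below them after vinyl chloride exposure, without overlap in either pair. Neither diet effect passed the test alone (log2 fold changes 0.98 and -1.5, edgeR adjusted p = 0.0688 and 0.0543). The exons of Atp5a1 overlap those of Haus1 by 129 bases, and Haus1 had 18 counts in all libraries. Uqcr11 had 7.07, 29.6 and 10.3 CPM in m12_WD+VC against 31.1, 23.8 and 44.2 CPM in m12_CD+VC libraries, which overlapped, and Uqcrb had 7.07, 6.24 and 18 CPM in m12_WD+VC, below its 39.6, 31.7 and 33.8 CPM in m12_CD+VC.

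Over the 48 members the median interaction was -1.42 and 44 were below 0, against a median of -0.04 over all tested genes, -0.73 over those without and 0.42 over those with an exon overlap. It was -1.53 over the members without and -1.41 over those with an overlap. Atp5f1, Atp5j, Ndufs7 and Atp5sl were the 4 above 0, at 0.88, 0.63, 0.45 and 1.29, and none of them passed the test (edgeR adjusted p = 0.117, 0.383, 0.757 and 0.216). No complex I or II member was called, with medians of -1.41 and -1.84. Atp5a1, Atp5b, Atp5h and Uqcrb kept their call in every alternative that tested them. With 1 library left out Cox7b kept its call in 9 of 12 fits and Uqcr11 in 6 of 12. The count was 4 without the first m12_CD, the second m12_CD+VC or the third m12_WD+VC library, 11 without the third m12_WD library, 12 with RLE scaling, and 3 among entries without an overlap tested alone. That last fit leaves out the members with an overlap, which held 2 of the 6 calls.

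**Figure D4:**
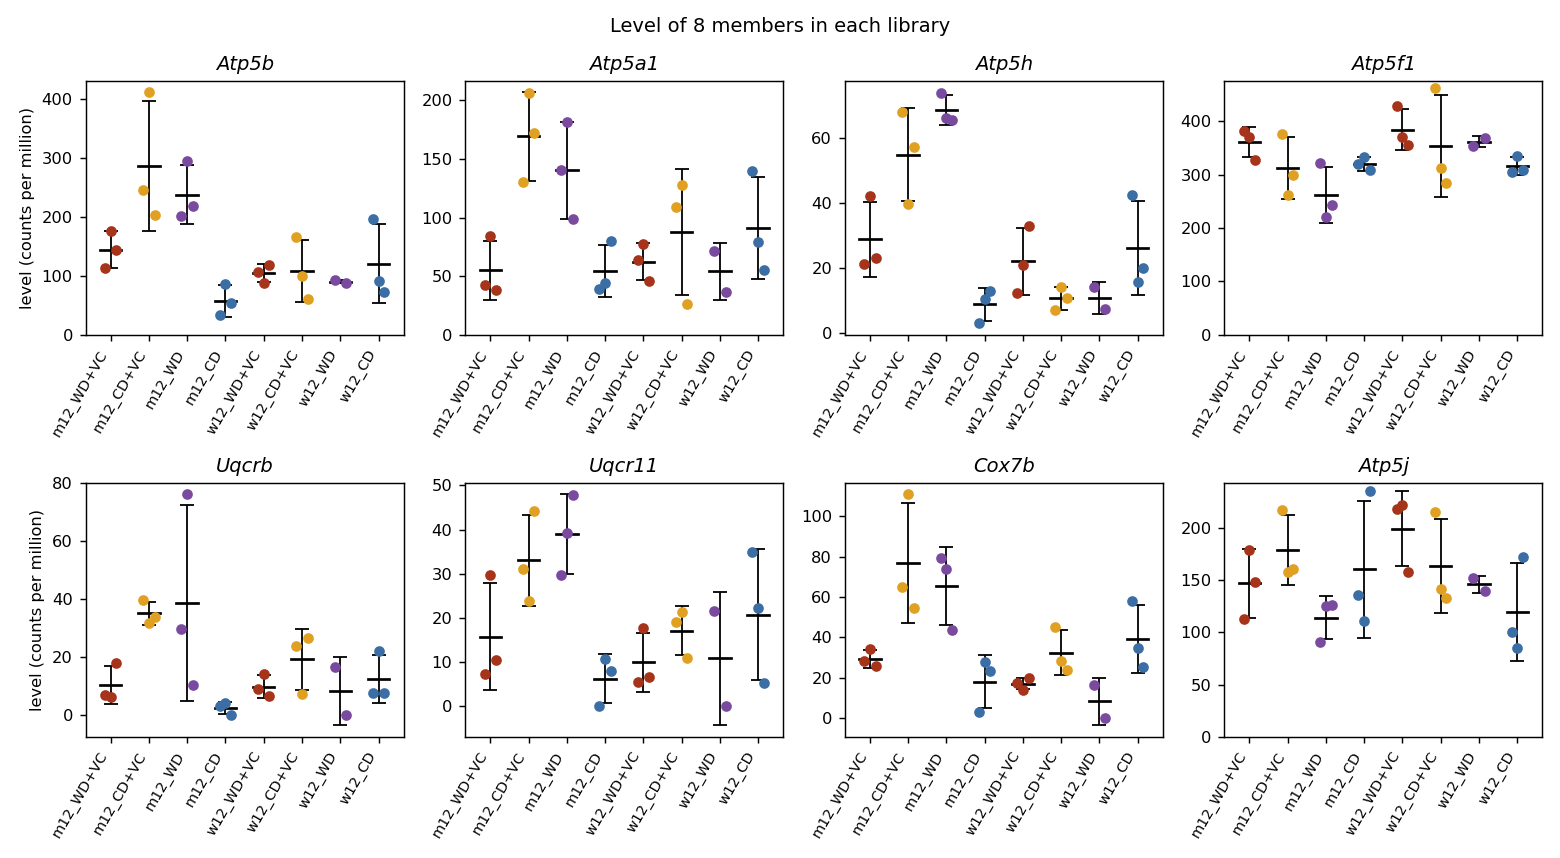
Level in CPM of 8 members in each library of the 8 groups (points), with the mean ± SD. The 6 members called in the diet by vinyl chloride interaction are lower in m12_CD than in m12_WD and m12_CD+VC, as for Atp5h with 3.01 to 12.9 CPM in m12_CD, while the groups of Atp5f1 and Atp5j overlap between m12_WD and m12_CD.

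At 12 weeks edgeR called 0 members in each of the 5 comparisons, with 2 at an unadjusted p under 0.05 for w12_WD against w12_CD, 1 for w12_WD+VC against w12_CD+VC, 5 for w12_CD+VC against w12_CD and 2 for w12_WD+VC against w12_WD. Of all tested genes, 0.0238%, 0.262%, 0.0% and 0.0% were called in either direction in these comparisons, and 0.0% in the interaction. In the second of them 0.191% were called higher and 0.0715% lower. Member medians were -0.11, -0.06, -0.06 and 0.29, and with 1 library left out they spanned -0.76 to 0.15, -0.08 to 0.31, -0.18 to 0.33 and -0.01 to 1.24. The values of -0.76 and 1.24 came without the first w12_WD library. Ndufa7, an accessory subunit of complex I, had the smallest p in the second, with 31.8, 31.7 and 39.5 CPM in w12_WD+VC, against 9.49, 7.1 and 0.0 CPM in w12_CD+VC libraries. The groups did not overlap, as for 8.34% of all tested genes with w12_WD+VC higher, but the log2 fold change of 2.63 ± 0.69 missed the threshold (edgeR adjusted p = 0.0904). For w12_CD+VC against w12_CD the groups were separate for 1 member that was higher and 3 that were lower, against 4.17% and 4.38% of all tested genes. Cox7b, Atp5h and Atp5e led the other 3, with log2 fold changes of -1.76, -1.33 and 2.14 and edgeR adjusted p values of 0.761, 1.0 and 0.929.

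Livers at 12 months were also set against those at 12 weeks. On control diet with vinyl chloride 5 members rose in m12_CD+VC against w12_CD+VC and none fell, against 3.31% of all tested genes called higher, 3.19% called lower and 6.5% in either direction. They included the complex I accessory subunits Ndufa10 and Ndufa7. Ndufa10 had 73.6, 95.1 and 85.9 CPM in m12_CD+VC, against 21.4, 28.4 and 26.7 CPM in w12_CD+VC libraries (log2 fold change 1.53 ± 0.47, edgeR adjusted p = 0.0461). Ndufa7 had 39.6, 71.3 and 13.0 CPM, against 9.49, 7.1 and 0.0 CPM (2.50 ± 0.70, edgeR adjusted p = 0.0296). Every m12_CD+VC library was the higher in both genes, as for 26 of the 48 members and 20.6% of all tested genes. Atp5g3, a gene of the rotating c ring, had 150.0, 95.1 and 171.8 CPM in m12_CD+VC, against 45.1, 35.5 and 50.7 CPM in w12_CD+VC libraries (1.46 ± 0.43, edgeR adjusted p = 0.0367). Atp5b had a log2 fold change of 1.14 ± 0.34 and Atp5h of 2.29 ± 0.55 (edgeR adjusted p = 0.043 and 0.0142).

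On Western diet 4 members rose in m12_WD against w12_WD and none fell, against 7.79% of all tested genes called higher, 6.74% called lower and 14.5% in either direction. The fit of these values includes the w12_WD library of 607 counts. Atp5h had 74.0, 66.3 and 65.5 CPM in m12_WD, against 14.3 and 7.38 CPM in w12_WD libraries (log2 fold change 2.31 ± 0.61, edgeR adjusted p = 0.00964). Cox7b had 79.6, 73.7 and 43.6 CPM in m12_WD, against 16.6 and 0.0 CPM in w12_WD (2.29 ± 0.65, edgeR adjusted p = 0.0139). Atp5b, at 2 w12_WD levels of 92.7 and 88.5 CPM, had a log2 fold change of 1.21 ± 0.40 (edgeR adjusted p = 0.035). Atp5e, the epsilon subunit of the central stalk, had 27.8, 56.5 and 38.4 CPM in m12_WD, against 7.13 and 0.0 CPM in w12_WD libraries, or 75 against 3 counts and a ratio of 7.28 (exact 95% interval 2.4 to 36.1, counting error only; edgeR adjusted p = 0.0359). The m12_WD libraries were the higher in all 4 genes, as for 31 of the 48 members and 30.9% of all tested genes, while 2 members and 16.2% of all tested genes were separate with m12_WD lower.

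Time gave no call in the other 2 settings. Between m12_CD and w12_CD edgeR called 0 members, 5 at an unadjusted p under 0.05, 0 by DESeq2 and 1 by limma-voom, against 0.643% of all tested genes called higher, 0.715% called lower and 1.36% in either direction. Atp5g3 had the smallest p there (log2 fold change 1.58, edgeR adjusted p = 0.0726). Between m12_WD+VC and w12_WD+VC it called 0, with 3 at an unadjusted p under 0.05 and 0 by DESeq2 and limma-voom, against 0.5% of all tested genes higher, 0.238% lower and 0.738% in either direction, and Atp5j2 led with 1.39 (edgeR adjusted p = 0.235). Member medians were 0.90 for CD+VC, 1.14 for WD, 0.19 for CD and 0.30 for WD+VC. The counts over time rested on single libraries. In CD+VC 0 members were called without the third w12_CD+VC or the first m12_CD+VC library, 1 without the second w12_CD+VC or the third m12_CD+VC library, and 2 without the first w12_CD+VC or the second m12_CD+VC library. On WD 0 were called without the second w12_WD library, 1 without the first, and 2 without the third w12_WD, the first m12_WD or the second m12_WD library. On CD 1 was called without the first library of either group.

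**Figure D5:**
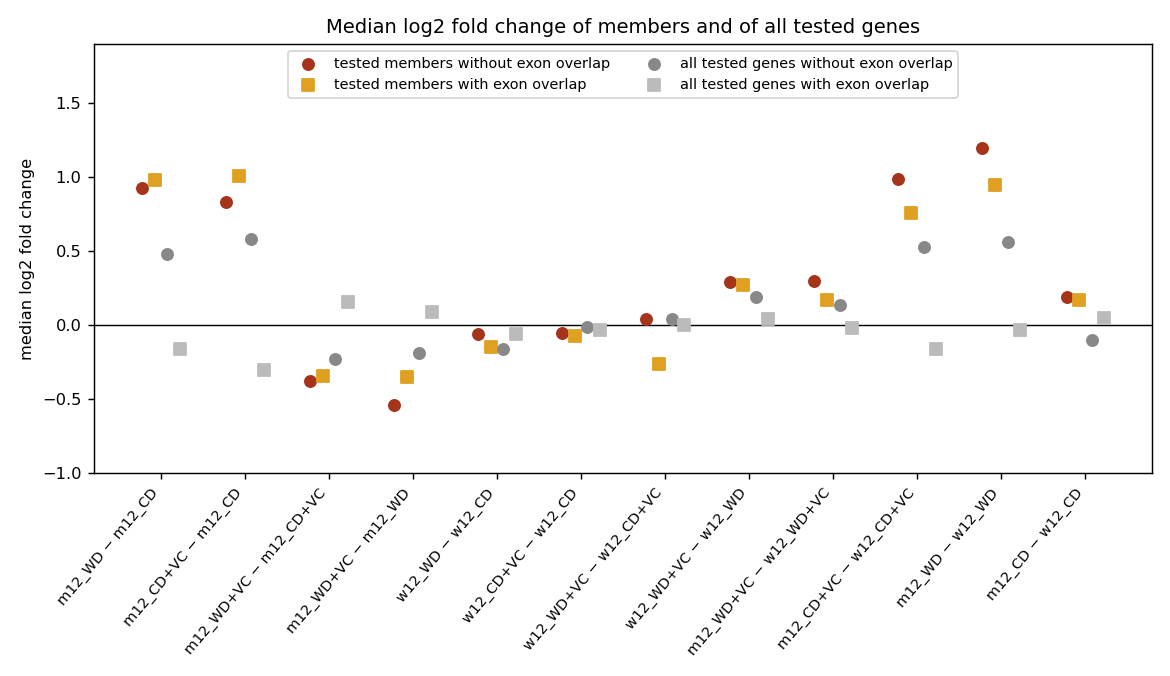
Median log2 fold change of the tested members without (31) and with (16) an exon overlap on the other strand, and of all tested genes of each kind, in 12 comparisons of 2 groups. In the first 2 comparisons the member medians are 0.93, 0.98, 0.83 and 1.01, while all tested genes with an overlap have medians of -0.16 and -0.30.

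Among tissue isoform pairs nearly all counts fell on the isoform known from liver. Cox4i1 had 384 counts and Cox4i2, the lung isoform, 0, which allows a share of up to 0.781% if 3 counts are taken as the limit (exact 95% upper bound 0.956%). Cox6a2, a heart and muscle isoform, held 3 counts against 200 for Cox6a1, a share of 1.48% (exact 95% interval 0.306 to 4.26), and Cox7a1 held 10 against 135 for Cox7a2, a share of 6.9% (3.36 to 12.3). Cox8b and Cox6b2 had 0 counts beside 98 for Cox8a and 230 for Cox6b1, which allows shares of up to 3.06% and 1.3% by the limit of 3 counts (exact 95% upper bounds 3.69% and 1.59%). These limits cover counting error only. Ass1 and Ndufs5 were also at 0 in all libraries, so a count of 0 here need not mean that an isoform was absent. Of the members whose products are not plain subunits of the complex in their name, Ndufa4, now assigned to complex IV, had a log2 fold change of 1.59 in m12_WD against m12_CD (edgeR adjusted p = 0.138), and Atp5sl, also called Dmac2 and needed to assemble complex I, had -0.99 (edgeR adjusted p = 0.121). Cox7a2l, which joins complexes III and IV, had 66 counts and Atp5s had 12, and neither was tested.

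Genes around the chain were counted in 5 lists, against the 13.3% of all tested genes called higher and 11.1% called lower in m12_WD against m12_CD. Of 16 tested genes of pyruvate oxidation and the citric acid cycle, 4 rose and 1 fell in m12_WD against m12_CD, with a median of 0.96. Among them Dlst, of the oxoglutarate dehydrogenase complex, had a log2 fold change of 2.47, Idh2, a mitochondrial isocitrate dehydrogenase, 1.48 and Pcx, pyruvate carboxylase, 1.47, while Pdha1, of pyruvate dehydrogenase, had -1.39 (edgeR adjusted p = 0.00627, 0.0276, 0.00675 and 0.0238 in that order). Of 7 other electron transfer and carrier genes 2 rose and none fell, Etfb at 1.46 and Etfdh at 1.42, which feed electrons from fatty acid oxidation into the chain (edgeR adjusted p = 0.00996 and 0.0191), with a median of 1.23. Of 7 assembly factors 0 rose and Cox11 fell (-1.07, edgeR adjusted p = 0.00853), with a median of -0.27. Of 4 listed regulators of mitochondrial biogenesis 0 rose and Tfb1m fell (-2.33, edgeR adjusted p = 0.0238), with a median of -0.78. Of 15 mitochondrial ribosome genes 2 rose and 4 fell, with a median of -0.41.

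In m12_CD+VC against m12_CD the citric acid cycle genes Dlst and Pcx rose (2.47 and 1.37, edgeR adjusted p = 0.034 and 0.0459) with a list median of 1.24, against 3.95% of all tested genes called higher, and 1 of the 7 electron transfer genes, Etfa, reached the threshold at 2.25 (edgeR adjusted p = 0.05). None of the assembly factors, regulators or ribosome genes was called there, with medians of -0.61, -0.19 and -0.34. In the interaction at 12 months Etfb, Etfdh and Pcx were called lower (-2.01, -2.17 and -1.81, edgeR adjusted p = 0.0311, 0.0305 and 0.0364), against 6.22% of all tested genes. Over time, Coq9 and Mdh2 were called higher and Cox20 and Mrps25 lower in m12_CD+VC, Etfb, Idh2 and Mrpl14 higher in m12_WD, and Cox20 lower in m12_CD. Of all tested genes, 3.31% were called higher and 3.19% lower in m12_CD+VC, 7.79% higher in m12_WD and 0.715% lower in m12_CD. None of the listed genes was called at 12 weeks, in m12_WD+VC against m12_CD+VC, or in m12_WD+VC against m12_WD.

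Of the marker lists the hepatocyte sums had the same order of group means as the summed CPM of all members at 12 months, and of complexes II, III and V. The members without an exon overlap averaged 2291.1 CPM in m12_WD and 2255.8 CPM in m12_CD+VC. Their order of group means, and that of complexes I and IV, was that of the stellate cell and fibroblast sums instead. The 12 hepatocyte markers summed to 8976.1 to 14380.2 CPM in m12_WD+VC, 20181.5 to 41336.4 CPM in m12_CD+VC, 13087.9 to 28650.9 CPM in m12_WD and 3613.1 to 11845.9 CPM in m12_CD libraries. The 10 macrophage markers, all with counts, summed to 304.0 to 544.5, 216.0 to 302.8, 548.6 to 788.4 and 66.2 to 131.8 CPM in the same 4 groups, and the 7 stellate cell and fibroblast markers, all with counts, to 66.7 to 134.2, 85.9 to 118.9, 148.0 to 179.3 and 6.02 to 25.5 CPM. The 6 endothelial markers summed to 91.9 to 132.6, 28.6 to 101.9, 101.8 to 164.5 and 23.3 to 33.1 CPM, and the 5 cholangiocyte markers to 42.4 to 92.4, 7.81 to 28.3, 81.4 to 216.1 and 0.0 to 10.3 CPM. The m12_CD libraries lay below all others of these 4 groups in the macrophage and stellate sums, but the macrophage, endothelial and cholangiocyte sums averaged higher in m12_WD+VC than in m12_CD+VC (401.7 and 246.9, 106.5 and 72.6, and 73.0 and 20.0 CPM), unlike the members. The red cell sum, from Alas2 alone, averaged 34.9 CPM in m12_WD+VC, 14.4 CPM in m12_CD+VC, 15.8 CPM in m12_WD and 25 CPM in m12_CD libraries. The part of any of these marker sums in the member levels was not tested.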

How the data were processed

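Per the labels' protocols, libraries were TruSeq, from Trizol-extracted total RNA of liver after DNase treatment and removal of ribosomal RNA. The submitters' processing notes name mm10, HTSeq 0.11.2, HISAT2 2.1.0 and Trimmomatic 0.38, and the sources used here give neither the annotation nor the strand setting. The deposited series table holds raw counts per gene. The deposited per-sample files hold log2 values, checked to equal log2 of the scaled count plus 1 with 0 values differing by over 1e-06, and all tests used the counts.

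Genes were kept by filterByExpr, and counts were TMM-scaled and fitted in edgeR 4.0.16 (R 4.3.3, robust quasi-likelihood) with 8 groups, 24 libraries and 14 comparisons, at a threshold of 0.05 within each. The common biological coefficient of variation was 0.317. Fold changes are on the TMM scale and levels are CPM of the library total, so they need not match. Exon overlaps of at least 1 base were found with bedtools 2.31.1. DESeq2 1.42.0 and limma 3.58.1 (voom with quality weights) were alternatives. Subunit genes with near-identical copies or pseudogenes are uncertain, since the handling of shared reads is not given.

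Named members were those called in any comparison, the 3 of complexes I and V and 2 of the others with the highest mean CPM, the one with the smallest p where none was called, the isoform pairs, and 4 whose products are not plain subunits of the complex they are named for. Ndufs7 was named after its value was seen. Members, lists and tests were chosen with earlier results of these data known. The fit was also run on simulated counts in which all libraries shared the same mean profile apart from genes changed by design. The real groups differed in composition, so that run does not show how the fit performs on these data. Replicates of a group differed beyond sampling noise, with chi-square per degree of freedom of 2.41 to 10.6 and 0 identical pairs. The values of 1 called gene of the citric acid cycle list are not reported here.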

Additional observations from a re-analysis of the deposited data

Results flagged for a closer look

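The diet effect at 12 months differed between exposed and unexposed mice, by the interaction test, for Atp5a1 (log2 difference -2.47), Atp5b (-2.53), Atp5h (-3.40), Cox7b (-2.70), Uqcr11 (-3.13) and Uqcrb (-5.04).

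Sums of members were set apart because the libraries of each pair of groups separated in opposite directions in CPM, and these differences were not tested. In no-overlap CPM the m12_WD and m12_CD libraries overlapped for all members and for complex I. The m12_WD+VC and m12_CD+VC libraries overlapped for complexes I and V and for the members with an overlap. The m12_WD+VC libraries, up to 12620.5, overlapped the m12_WD libraries, from 12501.0, for all members. The m12_CD+VC libraries overlapped the m12_CD libraries for complex I. On that scale the m12_WD mean was below the m12_CD mean for complex V and for the members with an overlap. Both of these sets also overlapped between m12_WD and m12_CD after TMM scaling. Complexes II and III and the members without an overlap stayed separate on both scales. For all members, m12_WD+VC minus m12_CD+VC was -1102.0 CPM and m12_WD minus m12_CD was 1794.2 CPM, while m12_WD+VC minus m12_WD was -991.2 CPM and m12_CD+VC minus m12_CD was 1904.9 CPM. For complex I the diet differences were -310.5 CPM with vinyl chloride and 701.0 CPM in air, and the vinyl chloride differences were -416.2 CPM on Western and 595.3 CPM on control diet. The diet differences with vinyl chloride and in air were -111.7 and 131.9 CPM for complex II, -138.1 and 240.9 CPM for complex III, and -400.9 and 451.2 CPM for complex V. For the members without an exon overlap they were -792.5 and 1414.4 CPM, with vinyl chloride differences of -827.8 CPM on Western and 1379.1 CPM on control diet. For those with an overlap the diet differences were -303.5 and 361.6 CPM.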

How the results depend on the processing

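Called members changed direction in no alternative. RLE scaling moved the count of called members to 15 for diet in air, 8 for vinyl chloride on control diet, 12 for the interaction and 7 for time on Western diet, and it moved the median of all tested genes to 0.50, 0.48, -0.54 and 0.45 in these. Without the expression filter the counts were 2 for vinyl chloride on control diet, 0 for time on CD+VC and 0 for time on WD. DESeq2 gave 2 for time on CD+VC. Limma-voom gave 1 for diet with vinyl chloride at 12 months, 2 for vinyl chloride on control diet, 1 for time on CD and 3 for time on CD+VC. Fits of the compared groups alone gave 4 for diet in air, 2 for diet with vinyl chloride, 2 for vinyl chloride on control diet and 2 for time on CD+VC. Class-wise TMM scaling gave 1 for diet with vinyl chloride, 1 for time on CD+VC and 2 for time on WD. Entries without an overlap tested alone gave 3 for diet in air, 2 for vinyl chloride on control diet, 3 for the interaction, 1 for time on CD+VC and 2 for time on WD. This alternative leaves out members with an overlap, which held 2, 1 and 2 of the main calls in the first 3 of these. Of the alternatives added after seeing the data, fitting 23 libraries gave 3 for time on CD+VC. The call of Cox4i1 for diet in air ended in 6 of 9 alternatives and all 6 fits without 1 library (edgeR adjusted p up to 0.213). The cause of these moves was not tested.

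With 1 library left out at a time the counts spanned 3 to 15 for diet in air, 0 to 3 for vinyl chloride on control diet, 4 to 11 for the interaction, 0 to 1 for time on CD, 0 to 2 for time on CD+VC and 0 to 4 for time on WD. The replicate numbers gave no sign of pairing: 16 of 77 same-numbered library pairs had correlations of their deviations over 0.1, against 35 of 154 others. With so few libraries in a group, this cutoff cannot show that pairs are absent. With the replicate number as a block the counts were 9 for diet in air, 1 for diet with vinyl chloride, 4 for vinyl chloride on control diet and 6 for the interaction.

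Depth limited single genes: 3 counts stood for up to 23.8 CPM. The expression filter left 36 members untested, by their levels in a few libraries and not by their total counts. Ndufb9, with 151 counts, was not tested, while Cox5a, with 102, was.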
